A study of Rattus norvegicus and Mus musculus and Macaca mulatta with 84 samples.

Results

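The 10 genes described here are expressed by Kupffer cells, the resident macrophages of the liver, or by macrophages in general: Cd5l, Marco, Cd163, Vsig4, Clec4f, Adgre1, Cd68, C1qa, C1qb and C1qc. They were taken by gene name from the 2 liver RNA tables of a study of diabetes models and of the microRNA miR-29, and each name matched 1 gene identifier per table. They are 10 of 32754 identifiers in rats, where 13640 genes had a mean normalised count of at least 10 and were tested, and 10 of 48440 in mice, where 14596 were tested. All 10 passed that minimum in both tables.

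The rats were UCD-T2DM animals, a line in which obesity and insulin resistance precede adult-onset type 2 diabetes. Liver RNA came from prediabetic rats (n = 5) and from rats 2 weeks (n = 4), 3 months (n = 5) and 6 months (n = 6) after the onset of diabetes. All 4 groups share the strain, and the labels give no age, so the duration of diabetes and age cannot be told apart. The mice were C57BL/6J animals given LNA-29, a locked nucleic acid oligonucleotide against miR-29 (n = 5), and controls (n = 6), for which the labels describe no further treatment. No transgene or Cre is named for either species. Whole liver was used, so a change in the number of macrophages and a change in RNA per macrophage cannot be told apart.

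Kupffer cells line the liver sinusoids, where they clear bacteria, aged red cells and particles from portal blood through scavenger, complement and lectin receptors. They depend on the receptor Csf1r and its ligands Csf1 and Il34, and on the transcription factor PU.1 encoded by Spi1. Clec4f is restricted to Kupffer cells in rodents. Vsig4, Cd5l and Marco are strongly expressed by them, while Cd68, Adgre1, Cd163 and the C1q chains are also found in other tissue macrophages.

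Promoters of 4 members are shown because these genes moved together or, for Clec4f, by less than the others. They are rat RefSeq sequences of build GRCr8, each running from 250 bases before to 50 bases after the start of the gene, while the submitters' processing notes name the older rat build rn6. Cd5l lies at chr2:175088665-175088964 on the plus strand, C1qa at chr5:154419884-154420183 on the minus strand, C1qb at chr5:154407778-154408077 on the minus strand and Clec4f at chr4:117696358-117696657 on the minus strand. Capitals mark GAGGAA, a core of sites bound by PU.1, and TGCTGA, a shared part of sites bound by Maf family factors, each on either strand, and no match of one overlapped a match of the other.
Cd5l: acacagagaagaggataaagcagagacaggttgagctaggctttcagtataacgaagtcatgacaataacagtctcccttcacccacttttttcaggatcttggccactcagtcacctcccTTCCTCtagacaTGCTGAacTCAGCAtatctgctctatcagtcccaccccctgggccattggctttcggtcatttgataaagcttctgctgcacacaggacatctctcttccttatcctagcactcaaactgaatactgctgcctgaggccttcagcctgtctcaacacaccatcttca
C1qa: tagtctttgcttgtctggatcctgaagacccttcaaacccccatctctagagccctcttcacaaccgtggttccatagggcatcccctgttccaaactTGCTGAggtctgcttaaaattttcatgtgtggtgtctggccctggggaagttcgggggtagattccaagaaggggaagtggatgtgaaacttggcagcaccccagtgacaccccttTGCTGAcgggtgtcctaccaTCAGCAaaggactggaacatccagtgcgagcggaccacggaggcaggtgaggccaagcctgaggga
C1qb: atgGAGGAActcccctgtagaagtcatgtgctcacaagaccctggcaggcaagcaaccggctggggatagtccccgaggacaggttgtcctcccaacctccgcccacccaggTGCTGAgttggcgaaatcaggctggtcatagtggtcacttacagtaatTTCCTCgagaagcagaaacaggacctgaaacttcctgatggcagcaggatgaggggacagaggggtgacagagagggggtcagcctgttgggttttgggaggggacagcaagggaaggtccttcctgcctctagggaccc
Clec4f: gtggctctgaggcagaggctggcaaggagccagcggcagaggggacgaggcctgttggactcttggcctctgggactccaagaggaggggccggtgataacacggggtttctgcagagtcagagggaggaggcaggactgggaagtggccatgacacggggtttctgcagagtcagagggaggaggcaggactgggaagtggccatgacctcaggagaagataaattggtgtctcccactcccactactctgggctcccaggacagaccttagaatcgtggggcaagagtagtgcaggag
Of the 9 members with a promoter entry, 5 held GAGGAA and 6 held TGCTGA. Among all 33469 promoters in the table the shares were 27.6% and 18.4%. C1qa held TGCTGA 3 times and GAGGAA 0 times, Cd5l held them 2 times and 1 time, C1qb 1 time and 2 times, and Clec4f and Cd163 held neither. A match is a description of the letters and not of a bound site. In the same annotation C1qb, C1qc and C1qa follow one another with no other gene between them.

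Values are normalised counts, as deposited. In units of 1000000, the columns summed to between 37.6 and 49.9 in rats and to between 43.3 and 52.8 in mice. The values are not divided by gene length, so levels are compared between groups and not between genes. Within a group, each library correlated with its fellows at r of 0.954 or above in rats and 0.979 or above in mice. All 10 members were above 0 in every library. Hepatocyte genes summed to between 3000000 and 8133000 normalised counts in rats and between 4722000 and 8066000 in mice, and none of them was at 0 throughout a group.

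The early stage of diabetes was compared first. At 2 weeks the 10 members stood close to their prediabetic levels, with log2 differences between -0.18 for Cd68 and 0.12 for Vsig4. None of the 10 was called by limma at an adjusted p under 0.05, and none had an unadjusted p under 0.05. The share of all genes called was 0%, with 0 of 13640 genes called and 1077 at an unadjusted p under 0.05, so the count of members called is not particular to them. Cd5l had 1979, 1692, 1864 and 2137 normalised counts in the rats diabetic for 2 weeks, against 1597, 2412, 1588, 1997 and 1691 in prediabetic rats, a log2 difference of 0.061 ± 0.34 (SE) with a 95% interval of -0.65 to 0.77. The 2 groups overlapped. The interval was narrowest for Clec4f, at -0.53 to 0.30, and widest for Marco, at -1.18 to 0.91.

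**Figure D1:**
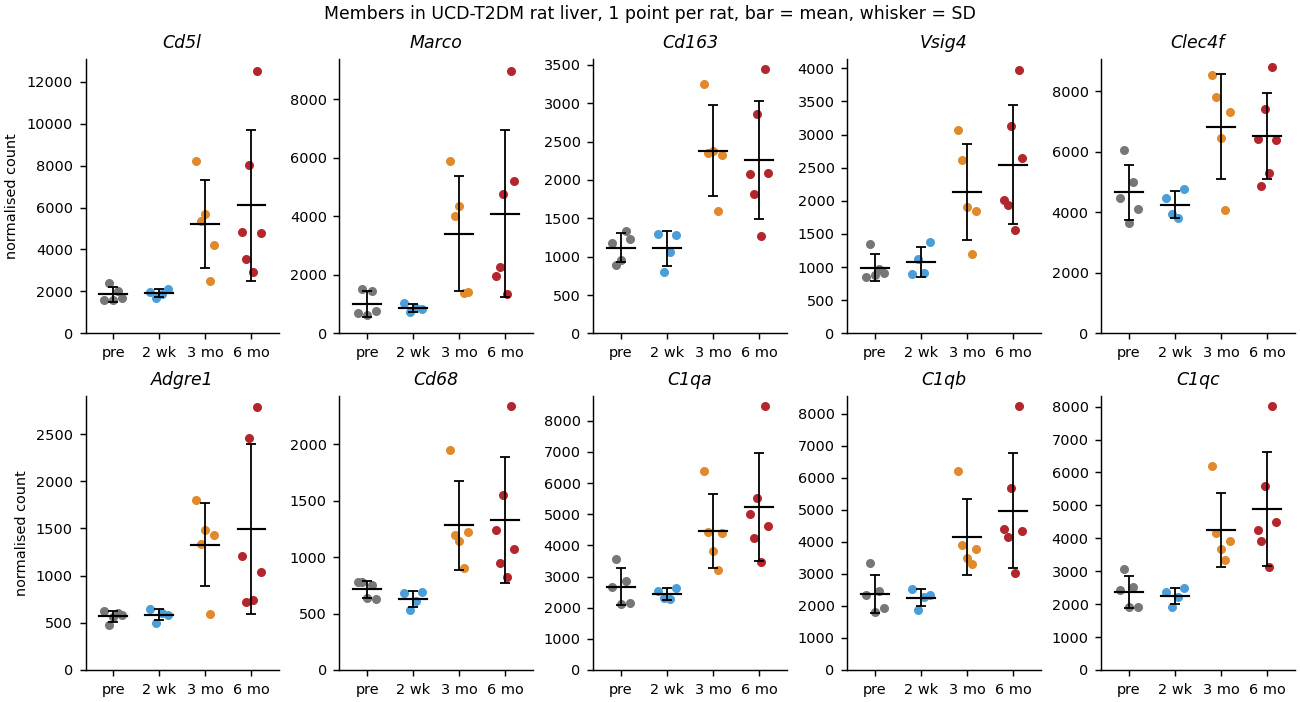
Normalised counts of the 10 members (vertical axes, linear, starting at 0) in each UCD-T2DM rat, for prediabetic rats (pre, n = 5) and rats diabetic for 2 weeks (2 wk, n = 4), 3 months (3 mo, n = 5) and 6 months (6 mo, n = 6). Points are rats, bars are means and whiskers are SDs. For Cd5l all 3-month and 6-month rats lie above all prediabetic rats, and the highest point, 12529, is 6-month replicate 5.

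After 3 months of diabetes 9 of the 10 members were called higher than in prediabetic rats, and after 6 months again 9 of 10. Clec4f was also higher at both stages but missed the adjusted p threshold at each. In both comparisons the same 5 prediabetic rats serve as controls. Of all genes tested, 7.76% were called higher and 8.72% lower at 3 months, and 11.0% higher and 10.0% lower at 6 months. The median log2 difference of the 10 members was 0.94 at 3 months and 1.02 at 6 months, beside 0.02 and 0.007 for all genes tested. Marco and Cd5l had the largest differences of the 10 at both stages.

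Cd5l encodes a secreted scavenger receptor cysteine-rich protein made by tissue macrophages (ENSRNOG00000023068 in the rat table). It had 8210.2, 5355, 5698, 2513 and 4232 normalised counts in 3-month rats, against 1597, 2412, 1588, 1997 and 1691 in prediabetic rats. In 6-month rats it had 2927 at the lowest, 4810.1 at the median and 12529 at the highest. Every 3-month and every 6-month rat was above every prediabetic rat, although 3-month replicate 4, at 2513, stood only slightly above prediabetic replicate 2, at 2412. The difference from prediabetic rats was 1.40 ± 0.32 on the log2 scale at 3 months (adjusted p = 0.00686) and 1.55 ± 0.31 at 6 months (adjusted p = 0.00189).

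Marco, a scavenger receptor that binds bacteria and particles (ENSRNOG00000049303), had 5880.3, 4003, 4360.1, 1395 and 1420.1 normalised counts in 3-month rats, against 679, 1532, 619, 1449.9 and 778 in prediabetic rats. Replicates 1 to 3 of the 3-month group were high, and replicates 4 and 5 lay within the prediabetic range. In 6-month rats Marco had 1358 at the lowest, 3520.1 at the median and 8953 at the highest, and 5 of 6 rats were above every prediabetic rat. Marco differed from prediabetic rats by 1.62 ± 0.47 on the log2 scale at 3 months (adjusted p = 0.0237) and 1.82 ± 0.45 at 6 months (adjusted p = 0.00795). The call at 3 months was lost without prediabetic replicate 1, 3 or 5, or without 3-month replicate 1, 2 or 3 (adjusted p from 0.0514 to 0.0725). Its coefficient of variation was 57.5% and 69.8% at these stages, the highest of the 10 members at each.

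Cd163, the receptor for haemoglobin bound to haptoglobin (ENSRNOG00000010253), had 3257, 2355, 2379, 1599 and 2326 normalised counts in 3-month rats, against 1183, 887, 956, 1329 and 1232 in prediabetic rats, with no overlap. In 6-month rats it had 1270.1 at the lowest, 2081 at the median and 3444 at the highest, and the lowest of these lay within the prediabetic range. On the log2 scale Cd163 differed by 1.07 ± 0.23 at 3 months (adjusted p = 0.0042) and 0.96 ± 0.22 at 6 months (adjusted p = 0.00441). Among genes that handle haemoglobin and iron, 1 of 8 identifiers was higher at 3 months, the haem oxygenase Hmox1 at 0.92 ± 0.31 (adjusted p = 0.0493). At 6 months 0 were higher and 1 was lower, the ferritin light chain Ftl1 at -0.68 ± 0.19 (adjusted p = 0.0146).

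Vsig4 encodes a complement receptor that binds fragments of C3 and helps clear coated bacteria from blood (ENSRNOG00000038132). It had 3072, 2608, 1914, 1200.0 and 1849.6 normalised counts in 3-month rats, against 846, 1351, 881, 974 and 912 in prediabetic rats. The 3-month rat at 1200.0 lay within the prediabetic range and the other 4 lay above it. In 6-month rats Vsig4 had 1558 at the lowest, 2330.4 at the median and 3979 at the highest, all above the prediabetic rats. Its difference from prediabetic rats was 1.05 ± 0.25 on the log2 scale at 3 months (adjusted p = 0.00815) and 1.31 ± 0.24 at 6 months (adjusted p = 0.00102).

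Clec4f, a C-type lectin receptor (ENSRNOG00000013137), had 8519, 7816, 6442, 4068 and 7321 normalised counts in 3-month rats, against 4459.5, 6043, 3649.8, 5014 and 4121 in prediabetic rats. Replicate 4 of the 3-month group was in the lower part of the prediabetic range and the other 4 were above it. In 6-month rats it had 4868 at the lowest, 6392 at the median and 8803 at the highest, and 4 of 6 rats were above every prediabetic rat. The log2 difference was 0.53 ± 0.19 at 3 months, with a 95% interval of 0.14 to 0.92, and 0.48 ± 0.18 at 6 months, with an interval of 0.11 to 0.85. Neither passed the threshold (adjusted p = 0.0562 and 0.0616). Without 3-month replicate 4 the adjusted p at 3 months was 0.00836, and without prediabetic replicate 2 it was 0.0327 at 3 months and 0.0263 at 6 months. Without 6-month replicate 2 or 6-month replicate 4 it was 0.038 and 0.0449 at 6 months.

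Adgre1 encodes F4/80, an adhesion receptor used as a macrophage marker in rodents (ENSRNOG00000046254). It had 1798, 1339, 1486, 597 and 1429.8 normalised counts in 3-month rats, against 629, 477, 558, 604 and 585 in prediabetic rats. The 3-month rat at 597 stood apart from its 4 fellows and lay within the prediabetic range. In 6-month rats Adgre1 had 723 at the lowest, 1125 at the median and 2792 at the highest, all above the prediabetic rats. Adgre1 differed by 1.14 ± 0.33 on the log2 scale at 3 months (adjusted p = 0.0242) and 1.18 ± 0.32 at 6 months (adjusted p = 0.0126). Without 3-month replicate 1, 2 or 3 the call at 3 months was lost (adjusted p from 0.0507 to 0.0696).

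Cd68, a glycoprotein of macrophage lysosomes (ENSRNOG00000037563), had 1952, 1201, 1143, 905 and 1222 normalised counts in 3-month rats, against 778, 779, 635, 753 and 627 in prediabetic rats. In 6-month rats it had 823 at the lowest, 1156 at the median and 2342 at the highest. Neither diabetic group overlapped the prediabetic rats. The log2 difference was 0.80 ± 0.22 at 3 months (adjusted p = 0.0196) and 0.81 ± 0.21 at 6 months (adjusted p = 0.0119).

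C1qa, C1qb and C1qc encode the 3 chains of C1q, which starts the classical complement pathway and is made largely by macrophages (ENSRNOG00000012807, ENSRNOG00000012749 and ENSRNOG00000012804). C1qa had 6375, 4432, 3815, 3224 and 4409.9 normalised counts in 3-month rats, against 2666, 3565, 2126, 2852 and 2151 in prediabetic rats. In 6-month rats it had 3475 at the lowest, 4812 at the median and 8486 at the highest. Prediabetic replicate 2 was the highest of its group and lay above the lowest rat of each later group. The log2 differences at 3 months were 0.73 ± 0.20 for C1qa, 0.80 ± 0.22 for C1qb and 0.83 ± 0.21 for C1qc (adjusted p = 0.0201, 0.0195 and 0.0112). At 6 months they were 0.94 ± 0.19, 1.03 ± 0.21 and 1.00 ± 0.20 (adjusted p = 0.00269, 0.00253 and 0.00191). C1qa was not called at 3 months without prediabetic replicate 5 or 3-month replicate 1 (adjusted p = 0.0523 and 0.0644). The chains kept a near-constant ratio across all 20 rats, 0.816 to 1.03 for C1qb over C1qa and 0.838 to 1.03 for C1qc over C1qa.

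**Figure D2:**
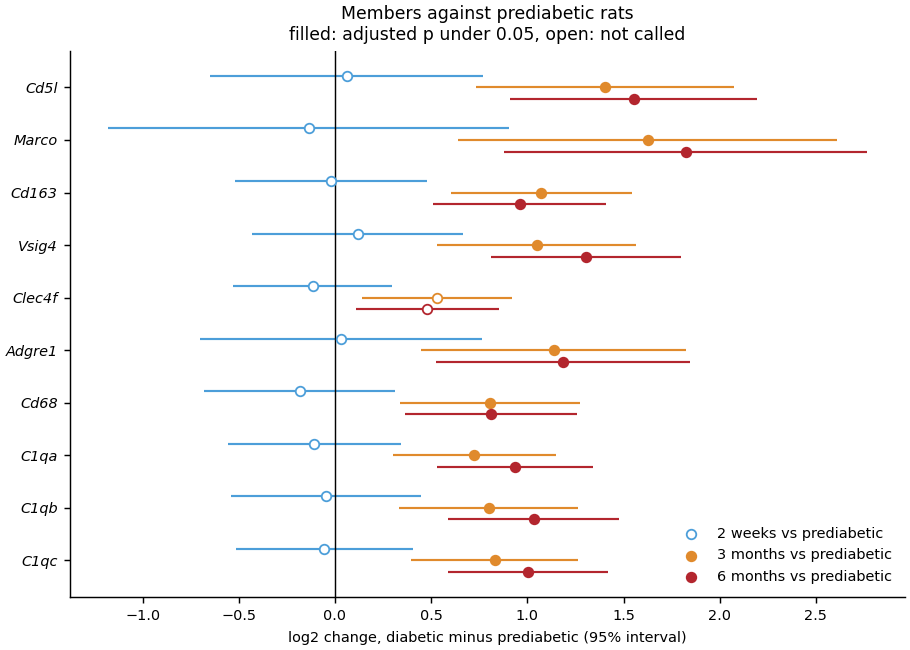
Log2 difference of each member from prediabetic rats (horizontal axis) after 2 weeks, 3 months and 6 months of diabetes. Points are limma estimates and lines their 95% intervals, and filled points passed an adjusted p under 0.05. The 2-week intervals all include 0, and Clec4f has the smallest difference of the 10 at 3 months and at 6 months.

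The groups did not overlap for 4 of 10 members at 3 months (Cd5l, Cd163, Cd68 and C1qc) and for 5 of 10 at 6 months (Cd5l, Vsig4, Adgre1, Cd68 and C1qc). All genes tested stood wholly above the prediabetic rats in 5.42% of cases at 3 months and 4.63% at 6 months. The count at 3 months rested partly on 3-month replicate 1, which ranked 2 or 3 of 20 rats for every member. Without it 4 of 10 members were called at 3 months: Cd5l, Vsig4, C1qc and Cd163. At 6 months 9 or 10 members were called whichever rat was left out.

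The diabetic stages were then compared with one another. Between 6 months and 3 months 0 of 10 members were called by limma, with 0 at an unadjusted p under 0.05, beside 0.0147% of all genes called. The 95% intervals of the log2 difference were narrowest for Clec4f, at -0.42 to 0.32, and widest for Marco, at -0.74 to 1.14. Between 6 months and 2 weeks 9 of 10 members were higher, beside 4.66% of all genes, and 9 of 10 did not overlap, beside 4.73% of all genes. Marco differed by 1.96 ± 0.48 on the log2 scale (adjusted p = 0.0182), Cd5l by 1.49 ± 0.33 (0.0106) and Vsig4 by 1.19 ± 0.25 (0.0087). Clec4f differed by 0.60 ± 0.19 and missed the threshold (adjusted p = 0.0555). It passed without 6-month replicate 2 (0.042), without 6-month replicate 4 (0.0364) and with only the 2 groups in the fit (0.0419). Without 2-week replicate 2 the count was 5 of 10, with Marco, Cd163, Cd68 and Adgre1 no longer called. Adgre1 also lost its call without 2-week replicate 1, 3 or 4, or without 6-month replicate 1, 3, 5 or 6 (adjusted p from 0.0509 to 0.0869). It was likewise not called with no minimum on low values (0.0529) or with only the 2 groups in the fit (0.072).

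Between 3 months and 2 weeks 5 of 10 members were higher, namely Cd5l, Cd163, Cd68, C1qa and C1qc, beside 1.15% of all genes. Their log2 differences ran from 0.83 for C1qa to 1.34 for Cd5l, with adjusted p from 0.0259 to 0.0458. The other 5 members differed by 0.65 for Clec4f to 1.76 for Marco with adjusted p from 0.0624 to 0.096. This count was unstable: it fell to 0 without 2-week replicate 1, without 2-week replicate 2, or without 3-month replicate 1, 2 or 3, it was 1 without 2-week replicate 3 or 4, and it was 9 without 3-month replicate 4. Marco was also called without 3-month replicate 5 (adjusted p = 0.0322).

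The members moved together from rat to rat. 6-month replicate 5 had the highest level of all 20 rats in 10 of 10 members. 3-month replicate 4 and 6-month replicate 4 were low, with median ranks over the members of 11.5 and 11 among 20, beside median ranks of 12 to 20 for prediabetic rats. The correlation of each member with the mean of the other 9 over the 20 rats ran from 0.921 for Clec4f to 0.99 for Cd5l. These correlations are descriptions, since the points share libraries and stages.

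**Figure D3:**
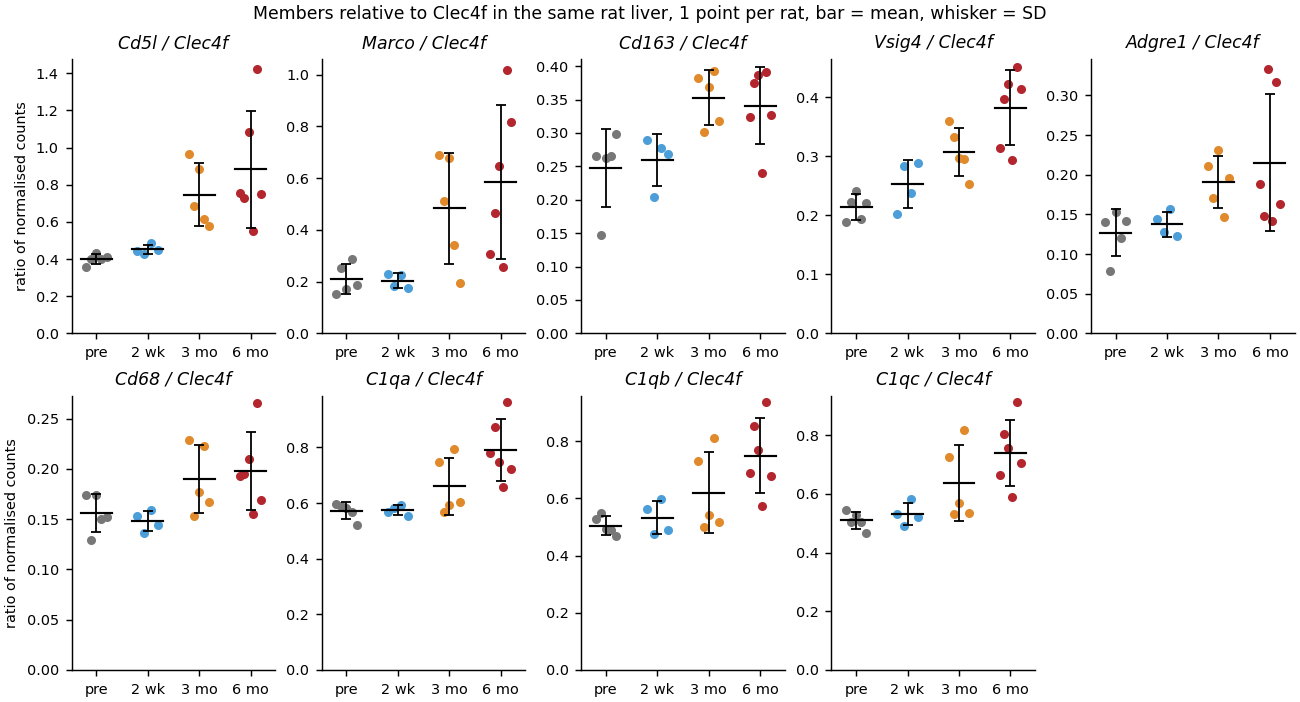
Ratio of each of the other 9 members to Clec4f in the same rat (vertical axes, linear, starting at 0), by stage. Points are rats, bars are means and whiskers are SDs. For Cd5l the 3-month and 6-month rats, at 0.553 or above, all lie above the prediabetic and 2-week rats, at 0.488 or below.

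Set against Clec4f in the same liver, the members fell into different patterns. These ratios were chosen after the values had been seen and are given with no test, and they compare groups within a gene pair, not levels between genes. Clec4f had the smallest log2 difference of the members at 3 months and at 6 months. Higher ratios of the others at those stages therefore follow largely from the choice of Clec4f. Cd5l over Clec4f was 0.358 to 0.435 in prediabetic rats, 0.43 to 0.488 at 2 weeks, 0.578 to 0.964 at 3 months and 0.553 to 1.42 at 6 months. Vsig4 over Clec4f was 0.19 to 0.241, 0.202 to 0.289, 0.253 to 0.361 and 0.294 to 0.452 at the same stages. C1qa over Clec4f was 0.522 to 0.598 in prediabetic rats and 0.553 to 0.594 at 2 weeks, 0.567 to 0.793 at 3 months and 0.657 to 0.964 at 6 months. For Cd5l and Vsig4 both later groups stood clear of prediabetic rats. For C1qa, C1qb and C1qc only the 6-month group did, and the 3-month group overlapped. Cd163 over Clec4f stood clear at 3 months, at 0.301 or above against 0.299 or below in prediabetic rats, and overlapped at 6 months. Marco and Adgre1 over Clec4f overlapped prediabetic rats at both later stages. Cd68 over Clec4f overlapped at every stage, with 0.155 to 0.266 at 6 months and 0.129 to 0.174 in prediabetic rats.

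Other genes of the macrophage program were read from lists of markers. General myeloid genes were higher for 11 of 14 at 3 months and 13 of 14 at 6 months, with median log2 differences of 0.82 and 0.87. Csf1r, the receptor on which Kupffer cells depend, had 3035 ± 819.7 normalised counts at 3 months and 1537 ± 187 in prediabetic rats (SD), a log2 difference of 0.95 ± 0.26 (adjusted p = 0.0179), and 0.92 ± 0.25 at 6 months (adjusted p = 0.013). Itgb2, an integrin chain of leukocytes, differed by 1.04 ± 0.27 at 3 months (adjusted p = 0.0136), and the galactose-binding lectin Lgals3 by 1.23 ± 0.32 at 6 months (adjusted p = 0.0109). Cd14, a co-receptor for bacterial lipopolysaccharide, was among those not called, at 0.19 ± 0.20 and 0.48 ± 0.19 (adjusted p = 0.545 and 0.0737).

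Other Kupffer cell genes were less uniform, with 4 of 12 identifiers higher and 1 lower at 3 months, and 2 higher and 1 lower at 6 months. Folr2, a folate receptor of resident macrophages, was higher by 0.94 ± 0.25 and 0.97 ± 0.24 (adjusted p = 0.0165 and 0.00848), and the scavenger receptor Msr1 by 0.67 ± 0.16 and 0.52 ± 0.15 (0.00827 and 0.0209). Nr1h3, which encodes the oxysterol receptor LXR alpha and is also expressed by hepatocytes, was lower by -0.34 ± 0.07 and -0.20 ± 0.07 (0.0046 and 0.0495). The summed level of this list ran from 14910 to 26320 at 3 months and 14630 to 25640 at 6 months, and from 19890 to 25600 in prediabetic rats, so the groups overlapped. Genes with high counts weigh most in this sum. At 6 months Nr1h3 averaged 4282.5 normalised counts and Folr2 350, so the sum can hide changes in genes with low counts. C6, another gene of this list with high counts, ran from 1119 to 6237 at 6 months and averaged 7137 at 2 weeks. It therefore also weighs on the range of the sum.

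Macrophage ligands were higher for 3 of 7 tested at 3 months and 4 of 7 at 6 months. Il34 differed by 1.52 ± 0.39 at 3 months (adjusted p = 0.0121), and Csf1, the other ligand of Csf1r, by 1.04 ± 0.28 (0.0153) and 0.95 ± 0.26 at 6 months (0.0157). The monocyte attractant Ccl2 differed by 2.12 ± 0.61 at 6 months (0.0198), at low levels of 28.2 ± 14 normalised counts at 6 months and 8.49 ± 8.02 in prediabetic rats. At 2 weeks it had 23.5 ± 9.74 (SD), and 6 months differed from 2 weeks by 0.17 ± 0.65 on the log2 scale (limma adjusted p = 0.894). Genes of lipid-associated macrophages, a state described in fatty liver, were higher for 3 of 7 and 4 of 7, among them Gpnmb at 1.44 ± 0.33 and 1.27 ± 0.31 (0.00676 and 0.00779). Recruited monocyte genes were higher for 1 of 5 at each stage, with median log2 differences of 0.85 and 0.61, and at 6 months the gene called was Plac8 (1.11 ± 0.28, adjusted p = 0.00928). Other genes listed with classical complement were higher for 1 of 10 and 2 of 10. At 3 months this was Cd93, a cell surface receptor and not a complement component (0.98 ± 0.27, adjusted p = 0.019). At 6 months these were C4a and C4b, whose near-identical sequences make their split uncertain.

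**Figure D4:**
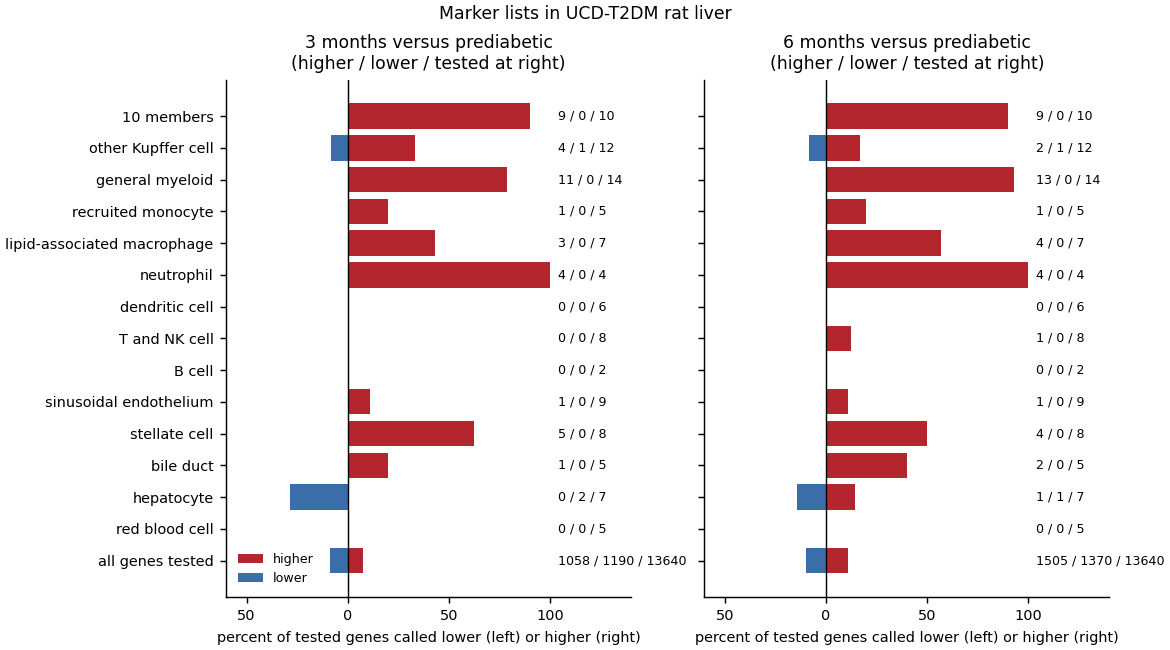
Percent of the tested genes of each list called higher (to the right) or lower (to the left) than in prediabetic rats, at 3 months on the left and 6 months on the right. The numbers at the right give genes called higher, called lower and tested. The members, the general myeloid genes and the neutrophil genes have the longest bars, and all genes tested stand at 7.76% and 11.0% higher. The neutrophil bars cover 4 tested genes, which could pass the minimum for testing through the later groups.

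Markers of other cell types moved at the same stages. All 4 tested neutrophil genes were higher at both stages, the calcium-binding protein S100a9 by 3.22 ± 0.67 at 3 months (adjusted p = 0.0042) and 2.91 ± 0.65 at 6 months (adjusted p = 0.00413). The list holds 6 genes, and the minimum for testing was set on the mean over all rats. Genes could therefore pass it through the later groups. Cxcr2 averaged 6.33 normalised counts at 2 weeks and 19.4 at 6 months, so the share called may partly follow from the minimum. The summed neutrophil level over 6 identifiers ran from 47.4 to 119.9 normalised counts in prediabetic rats, 84.3 to 128.7 at 2 weeks, 214 to 2918 at 3 months and 151.7 to 1886 at 6 months. S100a8 and S100a9 are also made by monocytes. Stellate cell genes were higher for 5 of 8 and 4 of 8, among them Dcn at 2.08 ± 0.36 and 2.36 ± 0.34 (0.00109 and 0.000154), with a summed level of 7601 to 9755 at 3 months and 6061 to 8850 at 6 months, against 3898 to 5802 in prediabetic rats. Bile duct genes were higher for 1 of 5 and 2 of 5, with median log2 differences of 1.28 and 1.37 and all 5 above 0 at each stage. Sinusoidal endothelial genes were higher for 1 of 9 at each stage, with median log2 differences of 0.36 and 0.19. All 9 were above 0 at each stage, and by limma 6 and 3 of them had an unadjusted p under 0.05. T and NK cell genes were higher for 0 of 8 at 3 months, with 2 at an unadjusted p under 0.05, and 1 of 8 at 6 months. Dendritic cell, B cell and red blood cell genes had 0 calls by limma at either stage, and 1 dendritic cell gene had an unadjusted p under 0.05 at 6 months. The part of these cell types in the members' differences was not tested. Of 7 hepatocyte genes 2 were lower at 3 months, and 1 was lower and 1 higher at 6 months. Ttr, which encodes the transport protein transthyretin, fell by 1.32 and 1.22 on the log2 scale (0.000181 and 0.00012).

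The genes whose levels over the 20 rats were most like the mean profile of the members, among 11407 with a mean of at least 50, were Ccl6, Unc93b1, Lrrc25, Ctss, Ptgs1, Fcgr1a, Folr2 and Lgmn, at Pearson r from 0.964 to 0.979. Ctss, which encodes the lysosomal protease cathepsin S, and Folr2 were on the marker lists. Part of this likeness is shared stage and library.

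The mouse comparison asked whether an oligonucleotide against miR-29 changes these genes. The 3 mature miR-29 strands in the rat RefSeq table, build GRCr8, are shown because they define the family, which has the same seed; capitals mark bases 2 to 8.
rno-miR-29a-3p: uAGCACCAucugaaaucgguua
rno-miR-29b-3p: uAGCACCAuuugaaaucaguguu
rno-miR-29c-3p: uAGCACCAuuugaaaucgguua
Reported targets of miR-29 served as a check of the labels: 12 of 17 were higher with LNA-29 and 0 lower, beside 1.57% of all genes higher. Elastin, Eln, had 259 ± 57.8 normalised counts with LNA-29 and 72.2 ± 13.4 in controls (SD, n = 5 and 6), a log2 difference of 1.82 ± 0.17 (adjusted p = 0.000202).

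None of the 10 members was called between LNA-29 libraries and controls by limma, and 1 of 10, Cd68, had an unadjusted p under 0.05. In all, 2.43% of genes were called. The median log2 difference of the members was 0.03, beside 0.00053 for all genes tested. No member was wholly above or below the controls, beside 2.40% of all genes above and 1.54% below.

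Cd68 (ENSMUSG00000018774 in the mouse table) had 291, 212, 395, 327 and 472 normalised counts with LNA-29, and 187 at the lowest, 227 at the median and 272 at the highest in controls. 4 of 5 LNA-29 libraries were above every control, and replicate 2 lay inside the control range. The log2 difference was 0.53 ± 0.17 with a 95% interval of 0.16 to 0.91 (adjusted p = 0.12). Without LNA-29 replicate 2 it was 0.69 (adjusted p = 0.0246).

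Cd163 (ENSMUSG00000008845) had 800.4, 740.2, 800.0, 735 and 1198 normalised counts with LNA-29, and 873 at the lowest, 993 at the median and 1071 at the highest in controls. 4 of 5 LNA-29 libraries were below every control and replicate 5 was above every control. The log2 difference was -0.23 ± 0.12 with a 95% interval of -0.48 to 0.023 (adjusted p = 0.307). Without LNA-29 replicate 5 it was -0.36 (adjusted p = 0.0463).

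Marco (ENSMUSG00000026390) had 552, 307, 581, 717 and 931 normalised counts with LNA-29, and 164 at the lowest, 302 at the median and 1346 at the highest in controls. The highest control, replicate 4, was above all LNA-29 libraries, and the other 5 controls lay between 164 and 335. Marco differed by 0.80 ± 0.45 on the log2 scale with a 95% interval of -0.18 to 1.78 (adjusted p = 0.36). Without control replicate 4 it was 1.204, and with any other library left out it was 0.60 or more, uncalled throughout. Clec4f (ENSMUSG00000014542) had 2085, 1826, 2429, 2381 and 3052 with LNA-29, and 1821 at the lowest, 2032 at the median and 2225 at the highest in controls, a log2 difference of 0.20 ± 0.11 with an interval of -0.038 to 0.43. Without LNA-29 replicate 5 it was 0.098 and without LNA-29 replicate 2 it was 0.28, uncalled in both.

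**Figure D5:**
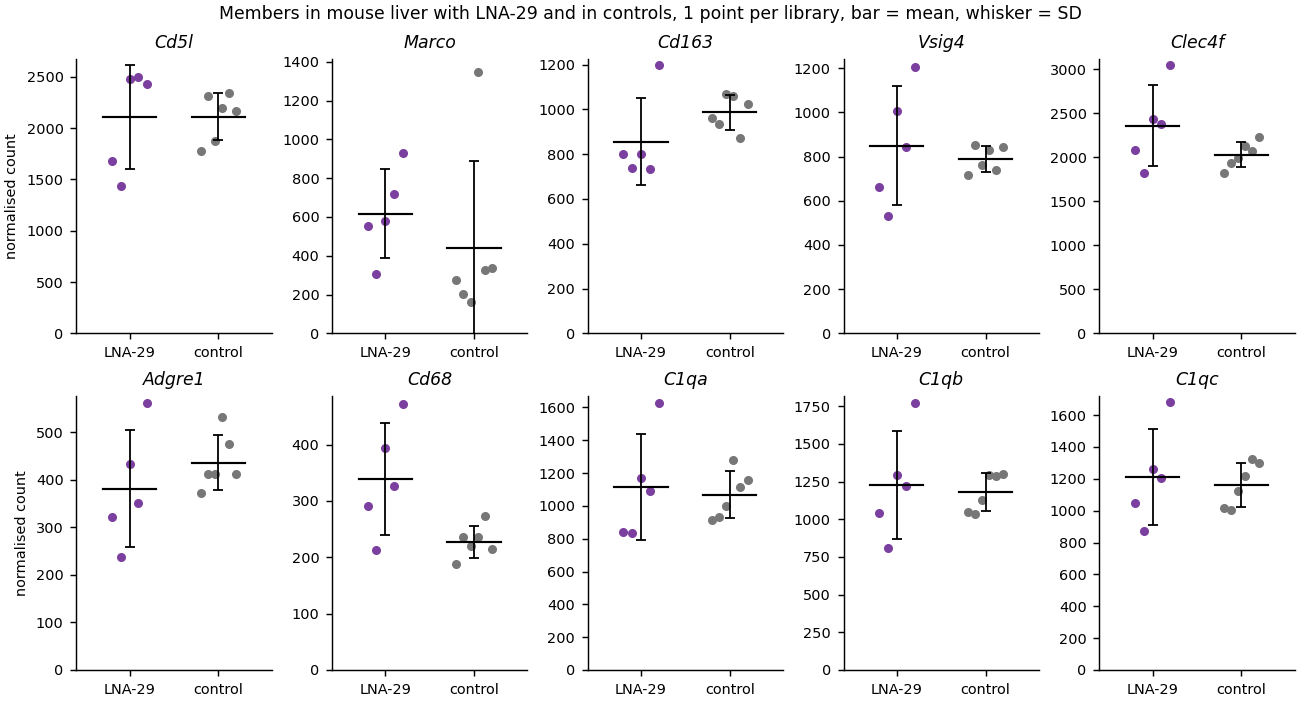
Normalised counts of the 10 members (vertical axes, linear, starting at 0) in each mouse library, with LNA-29 (left, n = 5) and in controls (right, n = 6). Points are libraries, bars are means and whiskers are SDs. For Cd68, 4 of 5 LNA-29 libraries lie above all controls, and for Marco control replicate 4 stands at 1346.

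For Adgre1 3 of 5 LNA-29 libraries were below every control, and the difference was -0.24 ± 0.18 with an interval of -0.63 to 0.15. Leaving out 1 library moved it to between -0.40, without LNA-29 replicate 5, and -0.087, without LNA-29 replicate 2, uncalled throughout. The other 5 members differed by less than 0.05 on the log2 scale. Cd5l had 1682, 1439, 2479.5, 2501 and 2431 normalised counts with LNA-29, and 1781 at the lowest, 2180.0 at the median and 2344 at the highest in controls, a log2 difference of -0.033 ± 0.15 with an interval of -0.35 to 0.28. Vsig4 differed by 0.048 ± 0.17 (-0.32 to 0.42), and C1qa, C1qb and C1qc by 0.027, 0.013 and 0.033. For C1qa the interval was -0.32 to 0.37. Apart from Marco, every member had a larger SD among LNA-29 libraries than among controls. LNA-29 replicate 5 had the highest level of the 11 mouse libraries in 8 of 10 members and replicate 2 the lowest in 6 of 10.

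Among the other lists in mice, 0 of 12 other Kupffer cell genes, 0 of 16 general myeloid genes and 0 of 5 recruited monocyte genes were called by limma, with 2, 2 and 1 of them at an unadjusted p under 0.05. Lipid-associated macrophage genes were higher for 2 of 8. Trem2, a lipid-sensing receptor of that macrophage state, had 34.5 ± 8.35 normalised counts with LNA-29 and 13.7 ± 6.06 in controls, a log2 difference of 1.34 ± 0.30 (adjusted p = 0.0388). The lipase Lpl differed by 0.77 ± 0.13 (adjusted p = 0.0124). Whole liver was used, and whether the Trem2 and Lpl changes arose in macrophages was not tested. In rats Trem2 had 2.96 ± 3.57 normalised counts in the prediabetic stage, 2.33 ± 2.2 at 2 weeks, 4.33 ± 3.03 at 3 months and 6.02 ± 4.96 at 6 months, under the minimum for testing. Genes listed with classical complement were higher for 2 of 9, the receptor Cd93 at 0.50 ± 0.10 (adjusted p = 0.0259) and C4a at 0.63 ± 0.15 (adjusted p = 0.0479). The split of C4a from C4b is uncertain here as in rats. Ftl1 was lower at -0.36 ± 0.08 (adjusted p = 0.0337). Macrophage ligands and neutrophil, T and NK cell, B cell, dendritic cell, stellate cell, bile duct, hepatocyte and red blood cell genes had 0 calls by limma. Unadjusted p was under 0.05 for 2 of 4 B cell genes, 1 of 8 stellate cell genes and 0 of the others. In addition, 1 of 10 sinusoidal endothelial genes was called, the lectin Clec4g, which differed by 0.47 ± 0.08 (adjusted p = 0.0121). By limma 5 of these 10 had an unadjusted p under 0.05, and 8 of 10 had a log2 difference above 0.

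Over the 11 mouse libraries the genes most like the mean member profile, among 11890, were Cybb, Lyn, Nckap1l, Mpeg1, Pira2, Tyrobp, Fcer1g and Cxcl16, at r from 0.913 to 0.959. Of the members, Cd163 and Marco followed the other 9 least, at 0.461 and 0.536, and C1qb most, at 0.976.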

How the data were processed

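Liver polyadenylated RNA was sequenced in 31 libraries, 20 from UCD-T2DM rats and 11 from mice, with an Illumina TruSeq kit per the labels' protocols. The values are normalised counts, a signal that the authors deposited and that is not whole numbers; sequencing depth is therefore not known exactly and count models were not run. The submitters' processing notes name STAR, Salmon, DESeq2 and the builds rn6, mm9, mm10 and hg19, for which roles and versions were not given in the sources read. The small RNA libraries of the series were not used here.

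Values were transformed to log2(value + 1), and testing was limited to genes averaging 10 or more across their table. All groups of a table entered a single limma fit (version 3.58.1, R 4.3.3) with a trended prior variance. Tests were two-sided with Benjamini-Hochberg adjustment over all genes of the table, called under 0.05, and intervals are 95% moderated intervals. A log2 difference on the log2(value + 1) scale understates the change of genes with low values. The fit was tested on simulated data. Samples were grouped by title. The rat labels name separate animals. The mouse labels do not say whether samples came from separate animals, so p-values there measure the spread between samples, which may be technical.

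The members, lists and tests were chosen with earlier results of these data known. All members were named; from other lists up to 3 called genes per direction and comparison with the largest change were open to naming, or up to 2 values where none was called. Cd14, not called, and the rat values of Trem2, Cxcr2 and C6 were named after their values were seen. A gene named at a stage may be given at another. 1 gene of a list is not reported here. Alternatives were a pseudocount of 10, no minimum or a minimum mean of 50, other scalings, robust empirical Bayes moderation, only the groups compared, a replicate block, and leaving out each library. Figures were drawn with matplotlib 3.10.9.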

Additional observations from a re-analysis of the deposited data

Results flagged for a closer look

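Among 60 sets of 4 to 6 samples, each 1 member in 1 group, 4 held a sample whose gap to its nearest fellow was large for the range of the group, and chance gives such a gap in about 1 set of 20. 3-month replicate 1 stood high for C1qb, at 6224 normalised counts, and 3-month replicate 4 stood low for Adgre1, at 596.9. LNA-29 replicate 5 stood high for Cd163, at 1198, and control replicate 4 of the mice stood high for Marco, at 1346.

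The effect of diabetes relative to the shared prediabetic rats differed between stages for several members, by the limma test of the difference itself. Between 3 months and 2 weeks the log2 difference was 1.341 for Cd5l, 0.8337 for C1qa, 0.8864 for C1qc, 0.9875 for Cd68 and 1.094 for Cd163, with adjusted p from 0.0259 to 0.0458. Between 6 months and 2 weeks it was 1.493 for Cd5l, 1.958 for Marco, 1.188 for Vsig4, 1.154 for Adgre1, 0.9813 for Cd163 and 0.9939 for Cd68. For C1qa, C1qb and C1qc it was 1.044, 1.08 and 1.059. Adjusted p for these 9 ran from 0.00586 to 0.0392.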

How the results depend on the processing

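Leaving out each library in turn gave 0 to 0 members called at 2 weeks against prediabetic, 4 to 10 at 3 months, 9 to 10 at 6 months, 0 to 9 for 3 months against 2 weeks, 5 to 10 for 6 months against 2 weeks, 0 to 0 for 6 months against 3 months and 0 to 1 with LNA-29. Counts of all genes called ran, in the same order, from 0 to 3, 1449 to 2393, 1920 to 3573, 41 to 557, 317 to 1717, 0 to 4 and 120 to 540. With each library left out, log2 differences that changed sign were not called before or after. They ran at 2 weeks from -0.03199 to 0.1003 for Adgre1, -0.184 to 0.002357 for C1qa, -0.1381 to 0.08442 for C1qb, -0.1263 to 0.04083 for C1qc, -0.1019 to 0.1264 for Cd163, -0.2852 to 0.04104 for Marco and -0.0089 to 0.2342 for Vsig4. For 6 months against 3 months they ran from -0.09215 to 0.3421 for Cd5l, -0.08835 to 0.4557 for Marco, -0.1752 to 0.1691 for Cd68, -0.2175 to 0.2165 for Adgre1, -0.2268 to 0.03977 for Clec4f and -0.2483 to 0.03933 for Cd163. With LNA-29 they ran from -0.1214 to 0.1193 for C1qa, -0.1314 to 0.1521 for C1qb, -0.09339 to 0.1443 for C1qc, -0.09364 to 0.201 for Vsig4 and -0.1044 to 0.09495 for Cd5l. With no minimum on low values 2 members were called for 3 months against 2 weeks and 212 genes with LNA-29. A pseudocount of 10 gave 5 genes for 6 months against 3 months, and fitting only the 2 groups gave 169 genes for 3 months against 2 weeks. Other scalings moved the median of all genes by less than 0.1 on the log2 scale.

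Deviations of same-numbered samples correlated at -0.184 to 0.216, and not every pair of any comparison was above 0.1. This gave no sign that replicate numbers pair the samples, but so few pairs cannot show that they do not. With a replicate block 1 member and 195 genes were called for 3 months against 2 weeks, 574 genes for 6 months against 2 weeks, 1 gene for 6 months against 3 months and 70 genes with LNA-29, and Cd163 at 2 weeks was 0.04857. For 6 months against 2 weeks the block gave adjusted p of 0.0728 for Marco and 0.0557 for Adgre1.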
